A study of Mus musculus with 6 samples.

Results

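Mitochondrial ribosomal protein genes were compared between embryoid body cells with an oxidized and cells with a reduced nucleus. The genes are the rows of the deposited gene table whose symbol begins with Mrpl or Mrps followed by a number, without pseudogenes, and 78 of 31265 genes fit this rule. Of these, 49 carry a large-subunit name (Mrpl) and 29 a small-subunit name (Mrps). Mouse E14Tg2a embryonic stem cells, genotype WT in the labels, carried Grx1-roGFP2 targeted to the nucleus, a fluorescent sensor of the glutathione redox state. They were grown with LIF and kinase inhibitors, differentiated in hanging drops without them, and taken at day 5. From each of 3 populations (A, B and C), sorting of live cells collected the 10% with the most oxidized sensor and the 10% with the most reduced one, and poly(A) RNA of each sort made up 1 library, 3 oxidized and 3 reduced in all. Both groups therefore share line, sensor, medium and day. Whether A, B and C were separate clones, cultures or days is not stated, so the p-values measure the spread between these libraries.

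The mitochondrial ribosome sits in the matrix and translates the few mRNAs that mitochondrial DNA encodes, all of them for subunits of the respiratory chain and ATP synthase. Its ribosomal RNAs come from mitochondrial DNA, whereas all of its proteins are encoded in the nucleus, made in the cytosol and imported. Some of these proteins have counterparts in the bacterial ribosome, and others are found only in mitochondria. Members are usually expressed together as housekeeping genes, and the factors NRF1, GABP (an ETS factor) and YY1 are known to bind promoters of many nuclear genes for mitochondrial proteins.

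Promoters are shown first because they carry features that the symbol rule did not use. A window from 250 bases before to 50 bases after the transcript start was given by RefSeq (GRCm38.p6) for 69 of the 78 genes. The NRF1 letters (GCGCA and GCGC with any 1 base between them), the ETS letters CCGGAAGT and the YY1 letters AAGATGGC were searched on both strands, with no exclusion of overlapping matches. NRF1 letters occurred in 13 of the 69 genes (18.8%), against 12.5% of the 8696 expressed genes with such a window. ETS letters occurred in 12 genes (17.4% against 9.89%) and YY1 letters in 12 (17.4% against 5.70%). At least 1 of these motifs was found in 34 genes (49.3% against 25.5%). The stretches of 4 genes in which a match lay before the start, outside annotated exons, are printed 5′ to 3′ with the matches in capitals. Those of Mrpl12 (chr11:120484463-120484612, plus strand) and Mrpl45 (chr11:97315566-97315715, plus strand) hold NRF1 letters. These 2 of the 13 genes were chosen with their values known, since both were high in oxidized A and B. Mrpl9, another of the 13, was lower in each oxidized library than in its reduced partner (16.0, 14.6 and 21.8 against 20.8, 21.2 and 22.8 FPKM in A, B and C). Mrps22 (chr9:98601680-98601829, minus strand) and Mrpl43 (chr19:45006443-45006557, minus strand) hold ETS letters. Both were lower in oxidized A and B than in every other library, and they too were shown with their values known. They are 2 of the 12 genes with ETS letters, whose differences ran from -0.38 to 0.62 on the log2 scale. Mrpl52, another of the 12 genes with ETS letters, had the largest positive difference of all members (0.62 on the log2 scale).
Mrpl12: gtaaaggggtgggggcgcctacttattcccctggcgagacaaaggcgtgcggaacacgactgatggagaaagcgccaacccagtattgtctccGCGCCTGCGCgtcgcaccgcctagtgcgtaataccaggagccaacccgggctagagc
Mrpl45: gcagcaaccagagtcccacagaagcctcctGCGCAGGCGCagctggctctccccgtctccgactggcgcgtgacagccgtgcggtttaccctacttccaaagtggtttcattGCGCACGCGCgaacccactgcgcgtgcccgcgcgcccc
Mrps22: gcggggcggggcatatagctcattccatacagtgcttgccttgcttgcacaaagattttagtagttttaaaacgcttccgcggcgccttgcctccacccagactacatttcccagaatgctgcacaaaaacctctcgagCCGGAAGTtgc
Mrpl43: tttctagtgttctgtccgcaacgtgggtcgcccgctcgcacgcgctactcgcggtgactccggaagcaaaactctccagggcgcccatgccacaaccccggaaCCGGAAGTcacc
A match is a run of letters and was not tested for binding. The 13 genes with NRF1 letters had a median oxidized minus reduced difference of 0.03 on the log2 scale, with a range of -0.31 to 0.60, and the 56 without them 0.01. With and without ETS letters the medians were 0.07 and 0.01, and with and without YY1 letters both were 0.03. Many members also lie back to back with another gene. Of the 78, 19 (24.4%) start within 1000 bases of a protein-coding gene on the other strand that runs away from them, against 8.69% of 18011 protein-coding genes of the table. Unlike the motif shares, this background takes in genes not expressed here, and the share over expressed genes was not computed. Among the pairs of the 19 are Mrps12 with the mitochondrial seryl-tRNA synthetase gene Sars2, whose starts lie 172 bases apart, and Mrpl32 with the proteasome gene Psma2, 75 bases apart. The starts of Mrpl36 and the complex I gene Ndufs6 overlap slightly. Mrpl46 and Mrps11 overlap each other at their starts on opposite strands of chromosome 7.

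Levels are the deposited FPKM values, which scale fragment numbers by transcript length and by library size, so they can be compared between genes. Depth is known only as a rough estimate from the value of 1 fragment in low genes, 1.18e+07 to 1.79e+07 fragments per library, lowest in both libraries of population C. The oxidized libraries A and B stood apart from the other 4 in the 13 mitochondrially encoded mRNAs, which summed to 7348 and 5160 FPKM against 2324 to 3917 FPKM. The sum hides opposite members: mt-Co3 alone had 2710 FPKM in oxidized A, 1525 FPKM in oxidized B and 112 to 199 FPKM in the other 4, whereas mt-Atp6, the most abundant on average, was at 304 and 257 FPKM there and at 666 to 1429 FPKM in the other 4. Pou5f1 and Sox2, which mark pluripotent cells, summed to 113 to 212 FPKM in the oxidized and 219 to 268 FPKM in the reduced libraries. Mesoderm markers were detected beside them, as were the embryonic globin genes of the blood list, so the cells were a mixture and not stem cells alone. In such bulk samples, fewer cells of a type and less RNA per cell cannot be told apart.

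All 78 genes were expressed, and all passed the filter of a mean of at least 1 FPKM. Their median level was 27.9 FPKM, from 3.51 FPKM for Mrpl48 to 149 FPKM for Mrpl34, and their median rank was the percentile 82.0 of the 12191 genes tested. The most abundant large-subunit genes were Mrpl34, Mrpl28, Mrpl2 and Mrpl18, whose products all have bacterial counterparts. Mrpl34 was at 189, 158 and 142 FPKM in the oxidized libraries, against 130, 125 and 151 FPKM in their reduced partners (A, B, C in this order throughout). Oxidized A and B were above every reduced library and oxidized C was within the reduced range. Mrpl28 was at 127, 105 and 129 FPKM against 148, 116 and 141 FPKM, and Mrpl2, a protein near the catalytic centre, at 119, 103 and 91.6 FPKM against 133, 106 and 140 FPKM. Both sets of values overlapped between the groups, although each oxidized library was below its reduced partner.

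Of the small-subunit genes, Mrps28, Mrps21, Mrps12 and Mrps27 were the most abundant. Mrps28 was at 113, 83.3 and 88.2 FPKM in the oxidized libraries, against 75.9, 68.5 and 85.3 FPKM in the reduced libraries. Oxidized B lay below reduced C, so the groups overlapped. Mrps21 varied most of these 4 genes, at 86.8, 29.6 and 75.2 FPKM against 53.2, 50.6 and 68.4 FPKM, with oxidized B the lowest of all 6 libraries. Mrps12, a protein of the decoding site, was at 59.1, 55.6 and 35.8 FPKM against 65.2, 42.3 and 64.4 FPKM, again with overlap. Mrps27 was at 51.5, 46.1 and 52.7 FPKM against 63.9, 50.3 and 46.4 FPKM, and its groups overlapped as well. The 3 Mrps18 paralogs descend from 1 bacterial protein family, and Mrps18a belongs to the large subunit while Mrps18b and Mrps18c belong to the small one. Mrps18a was at 23.1 ± 2.52 FPKM in the oxidized group and 22.2 ± 2.57 FPKM in the reduced group (SD, n = 3 each), Mrps18b at 31.2 ± 4.34 against 38.1 ± 11.7 FPKM, and Mrps18c at 44.7 ± 12.1 against 36.9 ± 7.60 FPKM. Each of these differences was smaller than the larger of its 2 SDs.

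The comparison asks whether cells sorted by nuclear redox state differ in the protein genes of the mitochondrial ribosome. None of the 78 genes passed the test. In limma with Benjamini-Hochberg adjustment over all 12191 genes, 0 of 78 were called in either direction at an adjusted p under 0.05, beside 0.796% of all genes tested, 0.517% higher and 0.279% lower in oxidized cells. At an unadjusted p under 0.05 there were 5 members, 3 higher and 2 lower, where 19.4% of all genes tested passed, and the lowest adjusted p of a member was 0.182, for Mrpl52 and Mrpl53. With the population as a replicate block, limma called 0 of 78 members and 4 of 12191 genes. The differences (oxidized minus reduced, in log2 of FPKM + 1) ran from -0.90 to 0.62 with a median of 0.03, and 45 of 78 were positive, beside 59.3% of all genes tested. Over all genes tested the median was 0.08. With median-ratio scaling the median of the 78 genes was -0.07 and 25 were positive, so the sign of the median turns with the scaling. The median over all genes tested was -0.00055 with that scaling. The median of the 78 minus that of all genes was -0.05 in the main fit and -0.07 with median-ratio scaling.

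The intervals bound what these libraries could have missed. For 73 of 78 genes (93.6%) the 95% interval of the difference lay inside a 2-fold change in either direction, as it did for 79.6% of all genes tested. The exceptions were Mrpl53, Mrpl12, Mrpl39, Mrpl52 and Mrps17. Between libraries of a group, the median SD of a member was 0.21 on the log2 scale, and 0.23 over all genes tested. Genes named Mrpl and genes named Mrps had medians of 0.04 (49 genes) and 0.01 (29 genes), a split by symbol that leaves Mrps18a and Mrps36 among the latter. The 46 genes with a bacterial counterpart and the 32 without had medians of 0.03 and 0.02. Groups that did not overlap were found for 2 genes higher in oxidized cells and 4 lower, beside 16.2% and 8.81% of all genes tested. The higher ones were Mrps6 and Mrps36, and the lower ones Mrpl18, Mrpl15, Mrpl43 and Mrps10.

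**Figure D1:**
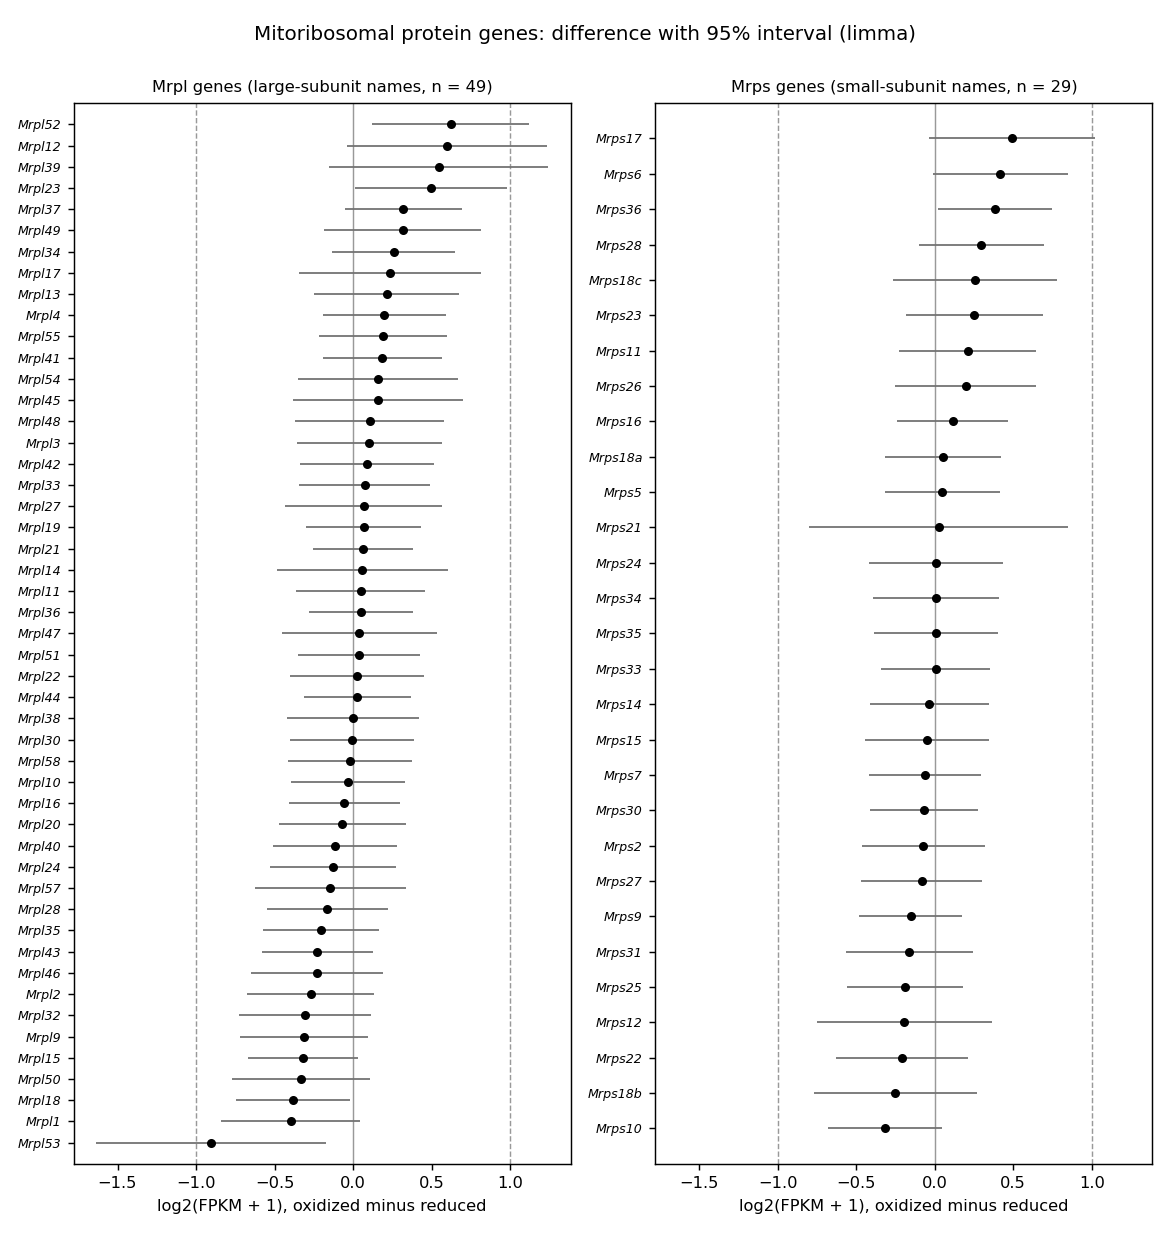
Difference of each gene (x axis: log2 of FPKM + 1, oxidized minus reduced) with its 95% interval from limma, for 49 Mrpl genes (left) and 29 Mrps genes (right); dashed lines mark a 2-fold change. Most points lie near 0, and Mrpl53 stands lowest at -0.90.

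The largest positive difference was that of Mrpl52, a large-subunit protein found only in mitochondria. It was at 34.1, 27.7 and 20.6 FPKM in the oxidized libraries, against 14.3, 16.6 and 21.1 FPKM in the reduced libraries. Oxidized A and B were above every reduced library, while oxidized C was just below reduced C (log2 difference 0.62, SE 0.22, adjusted p = 0.182 in limma). Mrpl12 encodes the protein of the flexible stalk that recruits translation factors. Its values were 113, 94.3 and 51.3 FPKM against 56.6, 45.5 and 59.9 FPKM, so oxidized A and B were high and oxidized C was within the reduced range (log2 difference 0.60, SE 0.28, adjusted p = 0.282 in limma). Mrpl39, also found only in mitochondria, also had oxidized A and B as its highest libraries, at 47.7, 35.8 and 18.4 FPKM against 19.2, 24.4 and 20.8 FPKM, with oxidized C the lowest of all 6 (0.55, SE 0.31, adjusted p = 0.355 in limma). Mrpl23, a protein beside the exit of the peptide tunnel, was at 22.6, 19.1 and 13.4 FPKM against 13.2, 10.4 and 13.9 FPKM (0.50, adjusted p = 0.248 in limma). Part of its sequence is shared with a pseudogene, as 11.6% of its stretches of 50 bases occur in other transcripts.

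Mrps17 and Mrps6, small-subunit proteins with bacterial counterparts, were the other genes with the 6 largest positive differences. Mrps17 was at 10.3, 5.09 and 7.61 FPKM in the oxidized and at 4.42, 4.88 and 5.65 FPKM in the reduced libraries. Oxidized B was within the reduced range (log2 difference 0.49, adjusted p = 0.286 in limma). Mrps6 was at 44.7, 34.6 and 28.3 FPKM against 24.9, 25.4 and 28.2 FPKM (0.42, adjusted p = 0.268 in limma). Its groups did not overlap, by a margin of less than 1 FPKM between oxidized C and reduced C. Of the stretches of 50 bases of Mrps6, 17.3% also occur in other transcripts, and 19.9% of its exon bases lie in exons of other genes. Mrps36, named here after its values were seen, was at 39.9, 31.6 and 32.5 FPKM against 26.7, 23.96 and 28.2 FPKM, without overlap (0.38, adjusted p = 0.237 in limma). Its product is now counted as a part of the oxoglutarate dehydrogenase complex and not of the ribosome, and 17.3% of its stretches also occur in other transcripts, most of them pseudogenes of this gene.

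Without oxidized C, 4 members were called higher, beside 7.25% of all genes tested in that direction (2.47% lower and 9.72% in either direction). They were Mrpl12 (log2 difference 0.93, adjusted p = 0.0178), Mrpl39 (0.92, 0.0209), Mrpl52 (0.81, 0.0405) and Mrpl23 (0.70, 0.0499), all from limma. With oxidized A and B both left out, the single oxidized library was assumed to vary like the reduced ones, and the differences of Mrpl12 and Mrpl39 were -0.064 and -0.20, and those of Mrpl52 and Mrpl23 were 0.25 and 0.10. Both oxidized A and B were above the other 4 libraries for 11 of 78 genes, beside 22.0% of all genes tested, and below them for 7, beside 8.27%. These genes were picked by their values in these 2 libraries. Lower differences for the 11 and higher ones for the 7 without them were therefore fixed by the choice. Without these 2 libraries, 5 of the 11 differences were positive (range -0.41 to 0.25, against 0.05 to 0.62 with them). Among these, Mrps6 was at 0.11 and Mrpl34 at 0.075. Of the 7, 2 were positive (range -0.29 to 0.023, against -0.38 to -0.15 with them). Mrpl45, which anchors the ribosome at the inner membrane, was among the 11, with 58.0 FPKM in oxidized A, 51.2 FPKM in oxidized B, 29.8 FPKM in oxidized C and 39.0 to 40.4 FPKM in the reduced libraries (log2 difference 0.16, and -0.41 without oxidized A and B). Mrpl49 was another, at 57.3 and 52.2 FPKM against 32.1 FPKM in oxidized C and 35.4 to 39.0 FPKM in the reduced libraries (0.31, and -0.18 without oxidized A and B). Both were chosen after their values were seen. The summed mitochondrially encoded mRNAs were high in the same 2 libraries, and their part in these values was not tested.

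**Figure D2:**
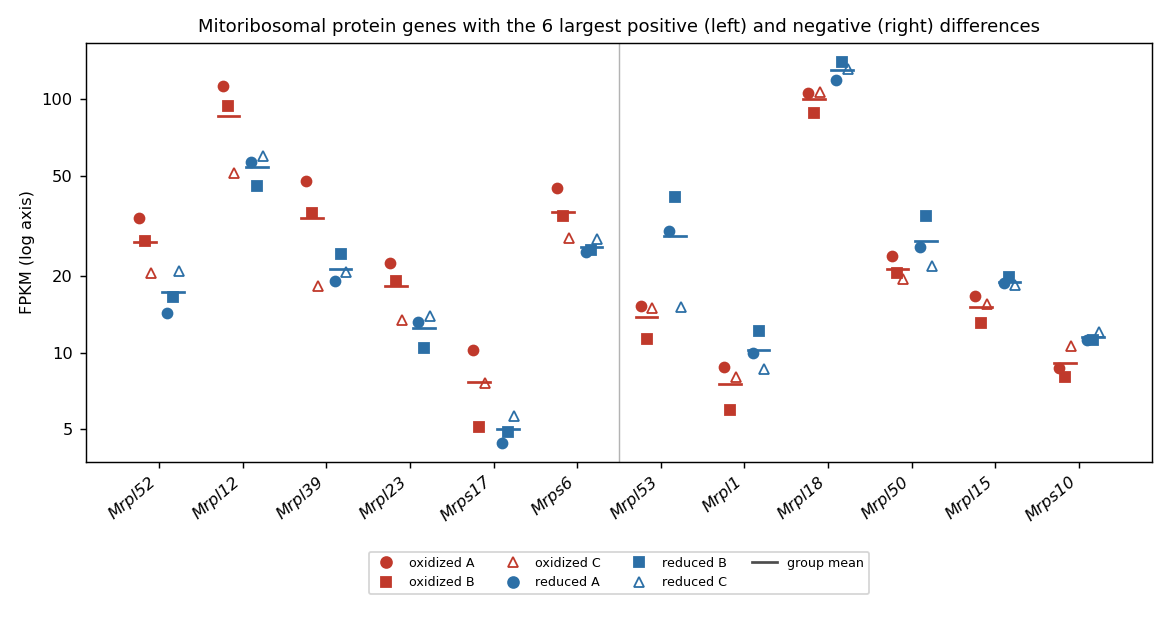
FPKM (log axis) in each library for the genes with the 6 largest positive and the 6 largest negative differences; circles, squares and triangles are populations A, B and C, red is oxidized, blue is reduced, and bars are group means. For Mrpl12 and Mrpl39 the oxidized triangle lies with the reduced points, and for Mrpl53 the reduced triangle lies with the oxidized points.

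Mrpl53, found only in mitochondria, had the largest negative difference. It was at 15.3, 11.3 and 15.0 FPKM in the oxidized libraries, against 30.1, 41.0 and 15.1 FPKM in the reduced libraries. Reduced A and B were high and reduced C was level with the oxidized libraries (log2 difference -0.90, SE 0.32, adjusted p = 0.182 in limma). In the authors' deposited table Mrpl53 was the 1 member marked significant, with a q-value of 0.0369 and a log2 ratio of -1.05, where 1.94% of all genes of the table were marked. Mrpl53 lies on chromosome 6 (chr6:83109040-83109939, plus strand, mm10), and 88.0% of its exon bases also lie in exons of other genes, nearly all in Gm42688, a protein-coding gene on the same strand. Of its stretches of 50 bases, 82.0% also occur in other transcripts, which makes its value uncertain.

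Gm42688 had the opposite pattern, at 16.3, 13.2 and 15.0 FPKM in the oxidized libraries, against 5.48, 2.24 and 14.5 FPKM in the reduced libraries. Gm42688 did not pass the test either (log2 difference 1.20, SE 0.47, adjusted p = 0.213 in limma). The sum of both genes was 31.6, 24.6 and 30.0 FPKM in the oxidized and 35.6, 43.3 and 29.7 FPKM in the reduced libraries. Mrpl53 made up 46.2% to 49.997% of that sum in the 3 oxidized libraries and 51.0% in reduced C, and 84.6% and 94.8% in reduced A and B. How fragments that fit both genes were assigned is not stated, and its part in the difference was not tested.

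**Figure D3:**
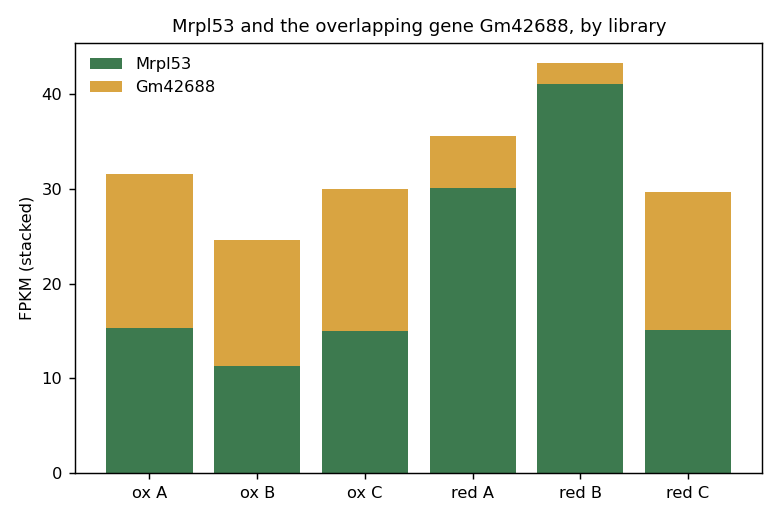
FPKM of Mrpl53 (green) and of the overlapping gene Gm42688 (yellow), stacked, in each of the 6 libraries. The total spans 24.6 to 43.3 FPKM, and the split between the genes is near even except in reduced A and B, where Mrpl53 holds 84.6% and 94.8%.

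The other large negative differences were smaller than that of Mrpl53. Mrpl18, a protein of the central protuberance, was at 106, 88.2 and 107 FPKM in the oxidized and at 119, 141 and 132 FPKM in the reduced libraries. Every oxidized library was below every reduced one (log2 difference -0.38, SE 0.16, adjusted p = 0.236 in limma). Mrpl15 was at 15.1 ± 1.88 against 19.0 ± 0.733 FPKM and Mrps10, a protein of the small subunit's head, at 9.11 ± 1.37 against 11.5 ± 0.483 FPKM (SD, n = 3 each), both without overlap and with adjusted p-values of 0.295 and 0.311 in limma. Mrpl43, named after its values were seen, was at 41.4 ± 3.503 against 48.7 ± 5.26 FPKM, also without overlap (adjusted p = 0.443 in limma). Mrpl1, the protein of the mobile L1 stalk, was at 8.76, 5.93 and 7.99 FPKM against 9.97, 12.2 and 8.60 FPKM, and Mrpl50 at 24.1, 20.7 and 19.5 FPKM against 26.1, 34.7 and 22.0 FPKM. Both overlapped between groups, with each oxidized library below its reduced partner.

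Within populations, the median difference of the 78 genes was 0.20 in A, -0.04 in B and -0.14 in C. Over all genes tested these medians were 0.09, 0.14 and 0.00. The fall from A to C was not particular to the 78 genes. For the 97 cytosolic ribosomal protein genes tested, compared further below, the medians were 0.26, -0.03 and -0.18. Positive differences were found for 58 of the 78 genes in A, 36 in B and 18 in C. Of the 97 cytosolic genes, 69, 48 and 9 were positive. The sign was the same in all 3 populations for 20 of the 78, with 8 positive (beside 26.9% of all genes tested) and 12 negative (beside 16.5%). Mrps17, Mrps6, Mrps28, Mrps18a, Mrps36, Mrps11, Mrpl21 and Mrpl41 were the positive ones. Mrpl1, Mrpl2, Mrpl9, Mrpl15, Mrpl18, Mrpl28, Mrpl43, Mrpl46, Mrpl50, Mrpl53, Mrps9 and Mrps10 were the negative ones. Small-subunit names, 29 of the 78, made up 6 of the 8, and large-subunit names, 49 of the 78, made up 10 of the 12. This describes names of genes sorted by their values. Among the 6 are Mrps18a and Mrps36, whose products are not counted in the small subunit.

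**Figure D4:**
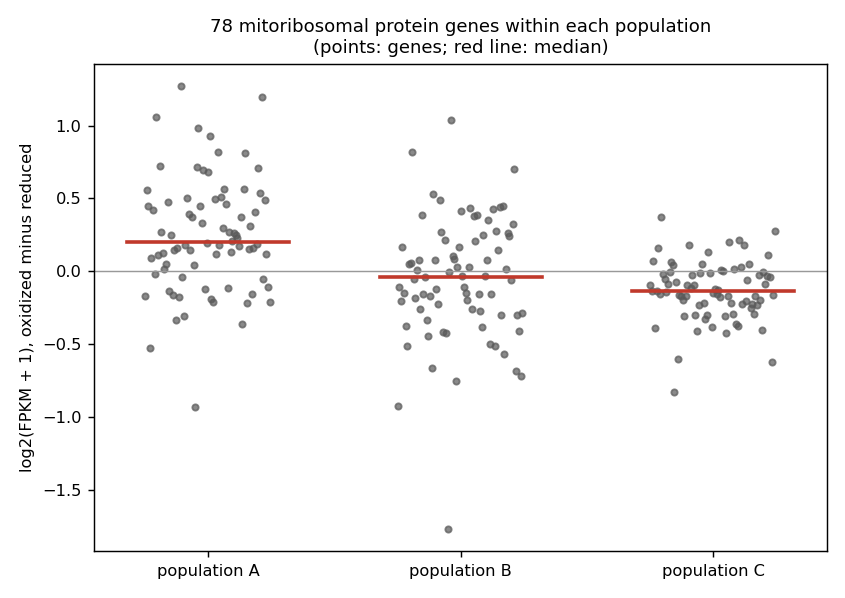
Oxidized minus reduced difference on the log2(FPKM + 1) scale (y axis) of each of the 78 genes within populations A, B and C; points are genes and red lines medians. The medians are 0.20, -0.04 and -0.14.

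Summed over the 78 genes, the level was 3169, 2520 and 2620 FPKM in the oxidized libraries and 2677, 2548 and 2918 FPKM in the reduced libraries. Oxidized A was the highest and oxidized B the lowest of the 6 libraries, so the groups overlapped. The share of all FPKM was 0.733% to 0.910% in oxidized and 0.739% to 0.787% in reduced libraries. The ratio of the sum of Mrpl genes to that of Mrps genes was 2.18, 2.24 and 2.09 in oxidized and 2.17, 2.24 and 2.24 in reduced A, B and C, with oxidized C the lowest. Nuclear-encoded respiratory subunits, 85 genes, summed to 10148, 8298 and 7850 FPKM in the oxidized and 7152, 6634 and 8267 FPKM in the reduced libraries. The mitoribosomal sum divided by this respiratory sum was 0.312, 0.304 and 0.334 in oxidized and 0.374, 0.384 and 0.353 in reduced A, B and C. All oxidized values were below all reduced values, and as this ratio was chosen after the values were seen it carries no test. The same order held for the mean log2(FPKM + 1) of the mitoribosomal genes minus that of the respiratory subunits, at -1.40, -1.43 and -1.23 against -1.03, -1.002 and -1.20. In population C the 2 values of this difference were close. Of 81 respiratory subunits tested, 0 were called in limma, beside 0.796% of all genes tested. An unadjusted p under 0.05 was found for 14 of them, all higher. Beside this, 19.4% of all genes tested had such a p, with 1648 of 12191 in the higher direction. The median difference of the 81 subunits was 0.24. The most abundant of them, the ATP synthase gene Atp5b, was at 529 ± 130.5 against 439 ± 33.2 FPKM (SD, n = 3 each).

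**Figure D5:**
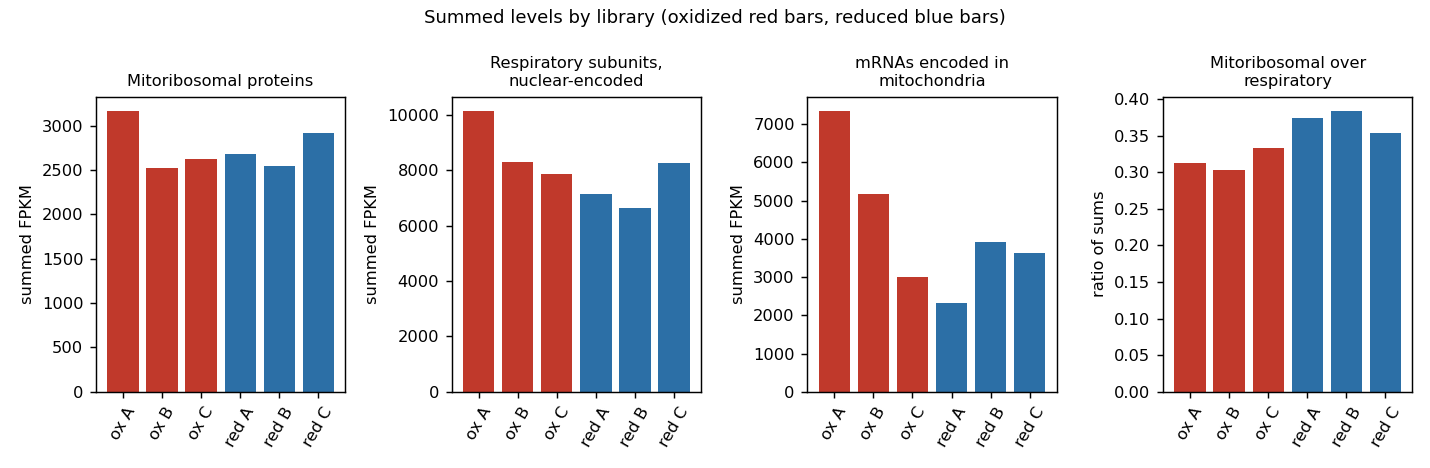
Summed FPKM of mitoribosomal protein genes, nuclear-encoded respiratory subunits and mitochondrially encoded mRNAs, and the ratio of the first sum to the second, by library (red bars oxidized, blue bars reduced). The ratio is 0.304 to 0.334 in oxidized and 0.353 to 0.384 in reduced libraries.

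The cytosolic ribosome, which translates nuclear-encoded mRNAs, served as a comparison. Its list holds the genes whose symbol begins with Rpl or Rps followed by a number, without pseudogenes. This rule can also take in kinase genes with such names (Rps6k), and it leaves out the Rplp and Rpsa genes. Of the genes on this list, 0 of 97 tested were called, beside 0.796% of all genes tested. Their sum over 99 genes was 25219, 19977 and 20318 FPKM in the oxidized and 20098, 19463 and 23422 FPKM in the reduced libraries. Oxidized A and reduced C were the highest 2 libraries for both sets. The median difference of the cytosolic list was 0.04, with 21 of 97 at an unadjusted p under 0.05, beside 19.4% of all genes tested. The most abundant, Rpl8, was at 925 ± 320 against 1388 ± 177 FPKM (SD, n = 3 each).

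Other genes of mitochondrial translation were followed through lists chosen by function. For the counts that follow, the shares over all genes tested were 0.796% called and 19.4% with an unadjusted p under 0.05. Of 32 genes for assembly factors and for mitoribosome proteins under other names, 32 were tested and 0 called, with 2 at an unadjusted p under 0.05 and a median difference of 0.11. The most abundant was C1qbp, a matrix protein needed for mitochondrial translation, at 117, 109 and 114 FPKM in the oxidized and 137, 158 and 136 FPKM in the reduced libraries, without overlap (log2 difference -0.33, adjusted p = 0.266 in limma). Of 16 translation factor genes, 15 were found and tested, 0 were called and 0 had an unadjusted p under 0.05, with a median of -0.09. Tufm, the elongation factor that brings tRNAs to the ribosome, was at 66.5 ± 4.49 against 60.3 ± 9.64 FPKM (SD, n = 3 each). Of 20 genes for mitochondrial tRNA charging 0 were called and 1 had an unadjusted p under 0.05 (median -0.03). The arginyl-tRNA synthetase gene Rars2 led them at 20.9 ± 1.56 against 24.9 ± 2.97 FPKM. Of 18 genes for mitochondrial DNA upkeep and transcription 0 were called and 2 had an unadjusted p under 0.05 (median -0.10), and the most abundant, Hsd17b10, a subunit of mitochondrial RNase P, was at 87.6 ± 10.2 against 99.3 ± 18.4 FPKM. Of 9 regulators 7 passed the filter, 0 were called and 1 had an unadjusted p under 0.05 (median -0.08), with the most abundant, the coactivator gene Pprc1, at 13.1 ± 4.59 against 17.7 ± 3.21 FPKM. The gene with that p was Myc, a growth-linked transcription factor, at 18.7, 15.7 and 7.59 FPKM in the oxidized libraries, against 4.44, 2.95 and 5.22 FPKM, without overlap (log2 difference 1.47, adjusted p = 0.0780 in limma). Groups did not overlap for 3 of the 7 regulators in the higher and 1 in the lower direction, beside 16.2% and 8.81% of all genes tested. The higher ones were Myc, Gabpb1 and Yy1, and the lower one was Nrf1. The 13 mitochondrially encoded mRNAs had 0 called, 7 at an unadjusted p under 0.05 (6 higher, 1 lower) and a median of 0.83, with 3 negative.

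Markers of cell types that embryoid bodies can hold were summed beside the mitoribosomal genes. Visceral endoderm markers, 5 of 8 of which passed the filter, summed to 11.9 to 18.7 FPKM in the oxidized and 4.68 to 7.03 FPKM in reduced libraries, with Amn the most abundant. Fibroblast or mesenchyme markers (5 of 5) summed to 112 to 148 against 52.8 to 74.3 FPKM, with Col3a1 and Fbln1 called higher and Mmp2 the most abundant. Mesoderm markers (5 of 5) summed to 146 to 205 against 88.6 to 124 FPKM, but 1 gene made up most of that sum and the list went both ways. Hand1 was at 188, 154 and 127 FPKM against 81.8, 62.9 and 97.6 FPKM, Mesp1 was at 5.38, 3.58 and 4.69 FPKM against 8.24, 6.77 and 6.51 FPKM, and T was called lower. Naive pluripotency markers (4 of 5) summed to 71.7 to 97.1 against 82.6 to 162 FPKM, with Zfp42 the most abundant. This list also went both ways, with 3 negative differences and 1 positive, that of Nanog (log2 difference 0.35, adjusted p = 0.707 in limma). Nanog was above every reduced library in oxidized A and B and below every reduced library in oxidized C. Neuroectoderm markers (1 of 3) summed to 3.33 to 7.999 against 2.40 to 2.54 FPKM, mostly Nes. Blood markers (3 of 3, among them Hbb-bh1) followed the population, at 588 and 596 FPKM in the oxidized and reduced C against 27.5 to 76.3 FPKM in the other 4. No marker was at 0 in all libraries, and the part of these cell types in the values of Mrpl12, Mrpl39 and Mrpl53 was not tested.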

How the data were processed

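Poly(A) RNA was sequenced as stranded paired-end libraries, per the labels' protocols. The authors deposited 1 table with FPKM values of 31265 genes in 6 libraries, per the file headers, with their own fold ratio of group means, its log2, and p-values and q-values from a test the headers do not name. Trimming and alignment tools named, per the submitters' processing notes, are cutadapt and HISAT2, beside StringTie, FastQC and edgeR, with the build mm10 and no versions. Whether counting used the strand, and how fragments shared by genes were treated, is not stated. FPKM values are not counts. Low values fell on whole fragments, within 2%, for 24.7% to 26.8% of values, so reads were not recovered.

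Genes at 1 FPKM or more on average were fitted on log2(FPKM + 1) with limma 3.58.1 in R 4.3.3 (group only, eBayes with trend, two-sided), adjusted over 12191 genes and called at an adjusted p under 0.05. The fit was tested on simulated data. FPKM values are by library or means ± SD (n = 3). Positions, overlaps and stretches of 50 bases come from GENCODE M21 (same build), where all 78 genes were found. The members, lists and alternatives were chosen with earlier results of these data known. Genes named are those with the 6 largest differences in each direction, the 4 most abundant of each subunit, the Mrps18 paralogs, the called and the most abundant gene of each other list, and those the text says were chosen after their values were seen. Genes shown for a promoter, a neighbour, their place in a count or a direction unlike the rest of their list are named outside this rule. A planned comparison of protein sequences was not run.

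The letters pair the libraries, since each population was sorted both ways per the labels. Within a letter, deviations from group means had correlations of r = -0.06 (A), 0.07 (B) and 0.20 (C). Across letters, oxidized A with reduced B had r = 0.13 and oxidized B with reduced A had r = 0.12. Both were above the values within A and within B. The pairing of A and B therefore rests on the column letters and not on these values. Between C and another letter, r ran from -0.17 to -0.05. The alternatives were a population block, other scalings, filters and pseudocount, no trend, a 2-fold minimum and leaving out libraries.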

Additional observations from a re-analysis of the deposited data

How the results depend on the processing

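With the other pseudocount, filters and scalings and without the trend, 0 members were called. The count was also 0 with a 2-fold minimum, which can only remove calls, and without oxidized A and B, where 4 of 12191 genes were called, so neither bears on stability. With the replicate block (population as a term) 0 were called and the lowest adjusted p was 0.200 in limma. No member's call changed with this block, whereas calls over all genes went from 97 to 4. Over all genes, 1 was called with no filter on low values and 1185 without oxidized C. Leaving out 1 library gave 0 to 4 members called higher, with 4 without oxidized C, and 0 called lower. Over all genes, 3 were called without oxidized A or without reduced B, and 4 without oxidized B or without reduced A. With so few calls, the 0 members in these settings do not bear on stability either. Without reduced C, 64 genes were called. Positive differences numbered 25 with median-ratio scaling, 25 with quantile normalization and 24 to 53 of 78 without 1 library, and the cause was not tested. The median over all genes tested was 0.08 in the main fit, -0.00055 with median-ratio scaling and -0.01 with quantile normalization. The median of the members minus that of all genes was -0.05, -0.07 and -0.06. Of 22 named genes, 6 turned direction in some setting. Without oxidized A and B these were Mrpl12 (-0.064) and Mrpl39 (-0.20). Mrps21 was at -0.066 with median-ratio scaling, -0.073 with quantile normalization and at -0.26 to 0.50 without 1 library. Mrps18a was at -0.038 with median-ratio scaling, -0.053 with quantile normalization and -0.025 to 0.14 without 1 library. Without 1 library Mrps12 ranged from -0.40 to 0.028 and Mrps27 from -0.18 to 0.049. The median SE of a member was 0.18 on the log2 scale with 3 libraries a group, and the effect of depth was not tested.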
